A study of Caenorhabditis elegans with 6 samples.

Results

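The head of Caenorhabditis elegans, a nematode, holds a pair of sensory cells called BAG neurons, and this account describes how their transcriptome differed from that of the other cells they were cultured with. The members are the genes with a normalized count of at least 10 in at least 2 of the 4 wild-type libraries: 13203 of the 47063 genes in the table, 11780 of them protein-coding. Of these libraries 2 hold fluorescent cells (BAG neurons) and the 2 they are set against hold non-fluorescent cells (non-BAG cells) from the same kind of culture. All 4 came from strain FQ424, which carries the transgene wzIs113[Pgcy-9::GFP], a reporter that places green fluorescent protein under the gcy-9 promoter. No other allele or treatment is given for that strain. Embryos were dissociated, passed through a 5 µm filter and cultured overnight at 25 °C, and cells were sorted about 24 h after dissociation with dead cells excluded. Per the labels more than 90% of the sorted fluorescent cells were fluorescent on inspection. The pool of non-fluorescent cells is a mixture of whatever embryonic cells survived and passed the filter. A pair of libraries from the pmk-3(wz31) mutant carrying the same transgene (strain FQ705) entered only the estimate of the spread. The design text calls the 2 libraries of a group biological replicates and gives nothing on whether each had a culture of its own; the p-values therefore speak only to how far these libraries spread, and that spread may be technical.

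BAG neurons are known for sensing carbon dioxide and oxygen: guanylyl cyclases in or near the ciliated ending make cyclic GMP, which opens cation channels, and the neuron releases glutamate and neuropeptides. They are among the smallest cells of the animal, with a cilium, an axon and no capacity to divide. An embryonic culture also holds body wall muscle, other neurons, epidermal and pharyngeal cells, and small mesodermal cells such as coelomocytes, scavenger cells that take up fluid from the body cavity.

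The libraries held 7592477 and 8596169 reads for BAG neurons and 6181113 and 8514846 for non-BAG cells. Ribosomal RNA genes took 11.45% and 10.38% of the BAG reads, against 14.95% and 10.48% of the non-BAG reads. Replicates differed by more than counting noise, with a median absolute difference of 0.46 log2 units per gene between the BAG libraries and 0.55 between the non-BAG libraries. Levels below are normalized counts in each library, changes are log2 differences of value + 1 in BAG minus non-BAG ± SE, and adjusted p-values are from limma with Benjamini-Hochberg adjustment over all 13203 genes (n = 2 in each group). On this scale changes of low genes are understated. In bulk samples, fewer cells of a type and less RNA per cell cannot be told apart.

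The sorted cells carried the markers that their label calls for. All 6 BAG markers were higher, and gcy-9, the gene of the sorting reporter, stood at 32105 and 38516 in BAG neurons, against 259 and 280.2 in non-BAG cells. Summed per kb of exon, the BAG markers reached 19115 and 18386 in BAG neurons, against 465 and 302 in non-BAG cells. All 10 general neuronal markers were higher too, with sums of 15043 and 14457 in BAG neurons, against 1670 and 1396 in non-BAG cells. Markers of cholinergic neurons, of which 4 of 5 were called higher, summed to 332 and 280.4 per kb in BAG neurons, against 322 and 137.7 in non-BAG cells.

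Muscle markers went the other way. Of the 8 body wall muscle markers 7 fell and unc-54 rose; the 7 without unc-54 summed to 1576 and 1422 per kb in BAG neurons, against 6433 and 4835 in non-BAG cells. Intestinal markers summed to 38.5 and 47.8 per kb in BAG neurons, against 29.4 and 97.7 in non-BAG cells. The intestinal regulator elt-2 had 0 reads in both BAG libraries, against levels of 5.41 and 2.48 in non-BAG cells, too low to be tested. The 8 germline markers summed to 157 and 254 per kb in BAG neurons, against 173 and 294 in non-BAG cells. Pharyngeal muscle, hypodermal and excretory sums overlapped as well between the groups, while the coelomocyte sum was lower in both BAG libraries, at 449 and 288 per kb against 933 and 591 in non-BAG cells. The glial sum was higher in both BAG libraries, at 200.2 and 288 per kb against 117 and 123 in non-BAG cells. Of the 8 glial markers 5 were tested, of which 1 rose (kcc-3) and 1 fell (ptr-10), with a median change of -0.21. Per kb kcc-3 alone held 102 and 121 in BAG neurons, against 18.5 and 29.6 in non-BAG cells. The sums of seam and GABA neuron markers were lower in both BAG libraries. Among the 5 GABA neuron markers only unc-25 was called, as higher, and the median change was -0.72. Marker sums of other oxygen-sensing neurons, touch neurons, and dopamine and serotonin neurons were higher in both BAG libraries. Of the 6 touch neuron markers mec-12 rose and mec-3 fell, and the median change was -1.08. Among the 5 markers of other oxygen-sensing neurons only gcy-37 was called, as higher, and the median change was -0.34. The part that RNA of other cells has in the BAG libraries was not tested.

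**Figure D1:**
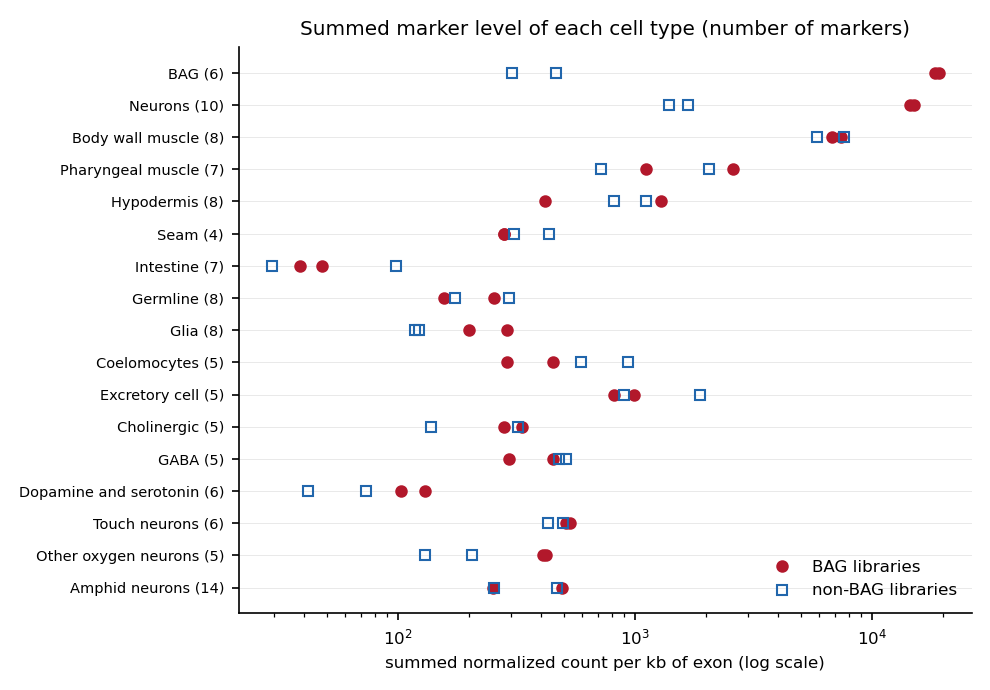
Summed normalized count per kb of exon (log scale, x axis) of the defining markers of each cell type, in the 2 BAG libraries (filled circles) and the 2 non-BAG libraries (open squares), with the number of markers in parentheses. BAG and general neuronal markers lie far to the right in BAG libraries. The glial sum lies higher in both BAG libraries than in both non-BAG libraries, with kcc-3 the only glial marker called higher.

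Of the 13203 genes 1417 were higher in BAG neurons (10.7%) and 573 were lower (4.34%). Rises were also larger: 913 genes rose and 228 fell by at least 2 log2 units, and 164 rose and 5 fell by at least 4. The median over all genes was -0.06. Counts of calls in each list and family below are to be read beside the 10.7% and 4.34%. In 27.8% of genes both BAG libraries were above both non-BAG libraries, and in 26.2% both were below. A higher call was made for 7.37% of genes with a mean under 50 and for 16.7% of those with a mean over 1000. Of the tested genes 688 entered only because both BAG libraries reached 10, and 329 of these were called higher, a count that the entry rule itself favours; 39 of the 371 that entered only through both non-BAG libraries were called lower. The number of higher genes fell to 904 without BAG replicate 1. The number of lower genes fell to 353 without BAG replicate 2, to 273 without non-BAG replicate 1, and to 328 and 326 without the first and the second mutant library.

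**Figure D2:**
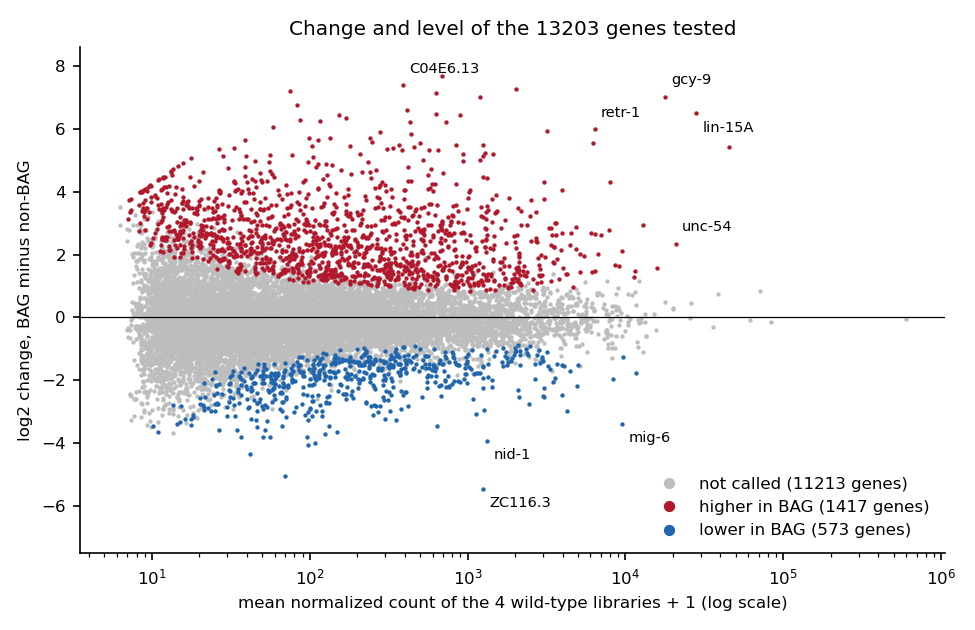
Log2 change in BAG minus non-BAG (y axis) against the mean normalized count of the 4 wild-type libraries + 1 (log scale, x axis) for each of the 13203 genes; red, higher, blue, lower and grey, not called at a limma adjusted p under 0.05. The 1417 rises reach above 7 log2 units and the 573 falls end with ZC116.3 at -5.44.

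Genes for enzymes of signalling were among those that rose. The diacylglycerol kinase genes dgk-3 and dgk-5, whose products remove the lipid messenger that phospholipase C makes, were among the 30 largest rises. For dgk-5 the levels were 1499 and 1796 in BAG neurons, against 29.2 and 43.4 in non-BAG cells, a change of 5.49 ± 0.29, adjusted p = 9.85e-06. For dgk-3 they were 1568 and 1315 in BAG neurons, against 16.2 and 20.5 in non-BAG cells (6.22 ± 0.27, adjusted p = 6.77e-06); its exons overlap ina-1 on the other strand, and no use of strand in counting is stated, so its level is uncertain. Other genes of the same signalling chain also rose: plc-1, a phospholipase C, changed by 4.29 ± 0.27 and pkc-2, a protein kinase C activated by diacylglycerol, by 3.53 ± 0.31. The gene of the protein kinase A catalytic subunit, kin-1, stood at 5209 and 6210.4 in BAG neurons, against 432 and 394 in non-BAG cells (3.78 ± 0.25, adjusted p = 2.76e-05). The receptor kinase gene grk-2 and the G protein alpha subunit gene gpa-7 changed by 3.41 ± 0.24 and 1.81 ± 0.30. The median change of 43 tested genes for heterotrimeric G protein signalling and its effectors was 0.93. Of these 18 rose and 1 fell, against 10.7% and 4.34% of all genes tested. The member that fell, acy-3, encodes an adenylyl cyclase, and 0 fell in 5 of the 6 fits with a library left out.

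Several genes of cyclic GMP signalling were higher. The ankyrin repeat gene F34D10.6, now arcp-1, had 12177 and 12195 in BAG neurons, against 301 and 226 in non-BAG cells, a change of 5.54 ± 0.27, adjusted p = 7.40e-06; its product is known to organise sensory signalling in the BAG cilium together with the phosphodiesterase PDE-1. The gene pde-1 itself changed by 5.19 ± 0.26, adjusted p = 7.84e-06. The arcp-1 counts of the BAG libraries lay close together, and its mean level was 3102 per kb of exon in BAG neurons, against 67.1 in non-BAG cells. The receptor guanylyl cyclase gene gcy-12 had 1424 and 1441 in BAG neurons, against 103.96 and 209.5 in non-BAG cells (3.27 ± 0.34, adjusted p = 0.000258), and cah-5, a carbonic anhydrase gene, had 468 and 614 in BAG neurons, against 35.7 and 19.2 in non-BAG cells (4.30 ± 0.36, adjusted p = 8.82e-05). In the list of genes for cyclic GMP and gas sensing 15 of 35 tested members rose and 1 fell. Over all genes tested the shares were 10.7% and 4.34%. The member of that list that fell, tmc-2, encodes a transmembrane channel-like protein and also stands in the list of calcium and cation channels. It had 74.9 and 57.5 in BAG neurons, against 750.5 and 531 in non-BAG cells (-3.25 ± 0.33, adjusted p = 0.000238).

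Genes named glb in the table, for globins, which encode heme proteins known in other animals for binding oxygen, rose in 11 of 29 cases (37.9%) and fell in 1, a fall that was lost without BAG replicate 1, non-BAG replicate 1 or either mutant library. The gene Y57G11B.97, now glb-34 and not counted in that family, had 1403 and 1338 in BAG neurons, against 6.497 and 4.96 in non-BAG cells (7.68 ± 0.28, adjusted p = 5.47e-06). For glb-14 the levels were 441 and 508 in BAG neurons, against 7.58 and 8.68 in non-BAG cells (5.70 ± 0.31, adjusted p = 1.15e-05). For glb-21 they were 234 and 167 in BAG neurons, against 2.17 and 5.58 in non-BAG cells (5.44 ± 0.44, adjusted p = 7.08e-05), and for glb-19 236 and 255 in BAG neurons, against 9.75 and 5.58 in non-BAG cells (4.87 ± 0.36, adjusted p = 4.49e-05). These 4 genes stayed under 10 in each non-BAG library, so they entered the test only through the BAG libraries, which favours a call of higher. Over all genes tested the share of rises was 10.7%. The level of glb-7 (6.43 ± 0.54) is uncertain, since its exons overlap grl-20 on the other strand. This gene too stayed under 10 in each non-BAG library.

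Single genes for receptors of transmitters and peptides were also among the 30 largest rises. The metabotropic glutamate receptor gene mgl-3 had 1170.3 and 1307 in BAG neurons, against 10.8 and 15.5 in non-BAG cells. The tyramine receptor gene tyra-2 had 625 and 680.2 in BAG neurons, against 13 and 16.7 in non-BAG cells (5.37 ± 0.29, adjusted p = 1.15e-05), acc-3, for a subunit of an acetylcholine-gated chloride channel, had 261 and 176 in BAG neurons, against 4.33 and 2.48 in non-BAG cells (5.64 ± 0.41, adjusted p = 4.32e-05), and lgc-40, for a ligand-gated ion channel, had 1018 and 923 in BAG neurons, against 26 and 14.9 in non-BAG cells (5.55 ± 0.32, adjusted p = 1.35e-05). In each of these the lowest BAG library was more than 10 times the highest non-BAG library. The gene acc-3 stayed under 10 in each non-BAG library. Its entry into the test came only through the BAG libraries, which favours a call of higher. Of the genes named npr, for neuropeptide receptors, 15 of 30 rose and 0 fell; npr-7 had 813 and 893 in BAG neurons, against 6.497 and 16.7 in non-BAG cells and npr-4 had 329.8 and 279 in BAG neurons, against 14.1 and 8.06 in non-BAG cells (4.70 ± 0.35, adjusted p = 5.15e-05). Of 13 frpr receptor genes 6 rose, with frpr-7 at 3.21 ± 0.40 and frpr-9 at 3.12 ± 0.52; that count was 2 without BAG replicate 1 and 3 without either mutant library. Rises made up 50% of the npr and 46.2% of the frpr genes, against 10.7% of all genes tested. Of the ionotropic glutamate receptor genes, 3 that rose were glr-5 at 2.36 ± 0.37, glr-1 at 2.2997 ± 0.33 and glr-4 at 2.02 ± 0.36.

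Several of the largest rises belong to genes with no name beyond a sequence identifier. F26F12.8 had 283 and 383 in BAG neurons, against 2.17 and 4.34 in non-BAG cells (6.33 ± 0.38, adjusted p = 1.83e-05), R01E6.7 had 464 and 506 in BAG neurons, against 7.58 and 11.2 in non-BAG cells (5.57 ± 0.31, adjusted p = 1.26e-05) and F13E6.2 had 2220.1 and 2672 in BAG neurons, against 60.6 and 47.7 in non-BAG cells (5.47 ± 0.27, adjusted p = 7.84e-06). F16C3.3, F52D10.4, K06A4.2 and R07E5.4 changed by 5.48 ± 0.28, 5.47 ± 0.35, 5.43 ± 0.39 and 5.34 ± 0.61. F26F12.8 and F52D10.4 stayed under 10 in each non-BAG library. Both entered the test only through the BAG libraries, which favours a call of higher. Among abundant transcripts, retr-1 had 10402 and 14824 in BAG neurons, against 199 and 193 in non-BAG cells (5.98 ± 0.30, adjusted p = 7.84e-06), and Y97E10C.1, among the 15 protein-coding genes with the highest level per kb in BAG neurons, had 11968 and 12188 in BAG neurons, against 1869 and 2033 in non-BAG cells (2.63 ± 0.26, adjusted p = 0.000207). Genes with no name beyond their sequence identifier made up 431 of the 1190 protein-coding rises (36.2%) and 155 of the 543 protein-coding falls (28.5%), against 4600 of the 11780 protein-coding genes tested (39.05%).

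**Figure D3:**
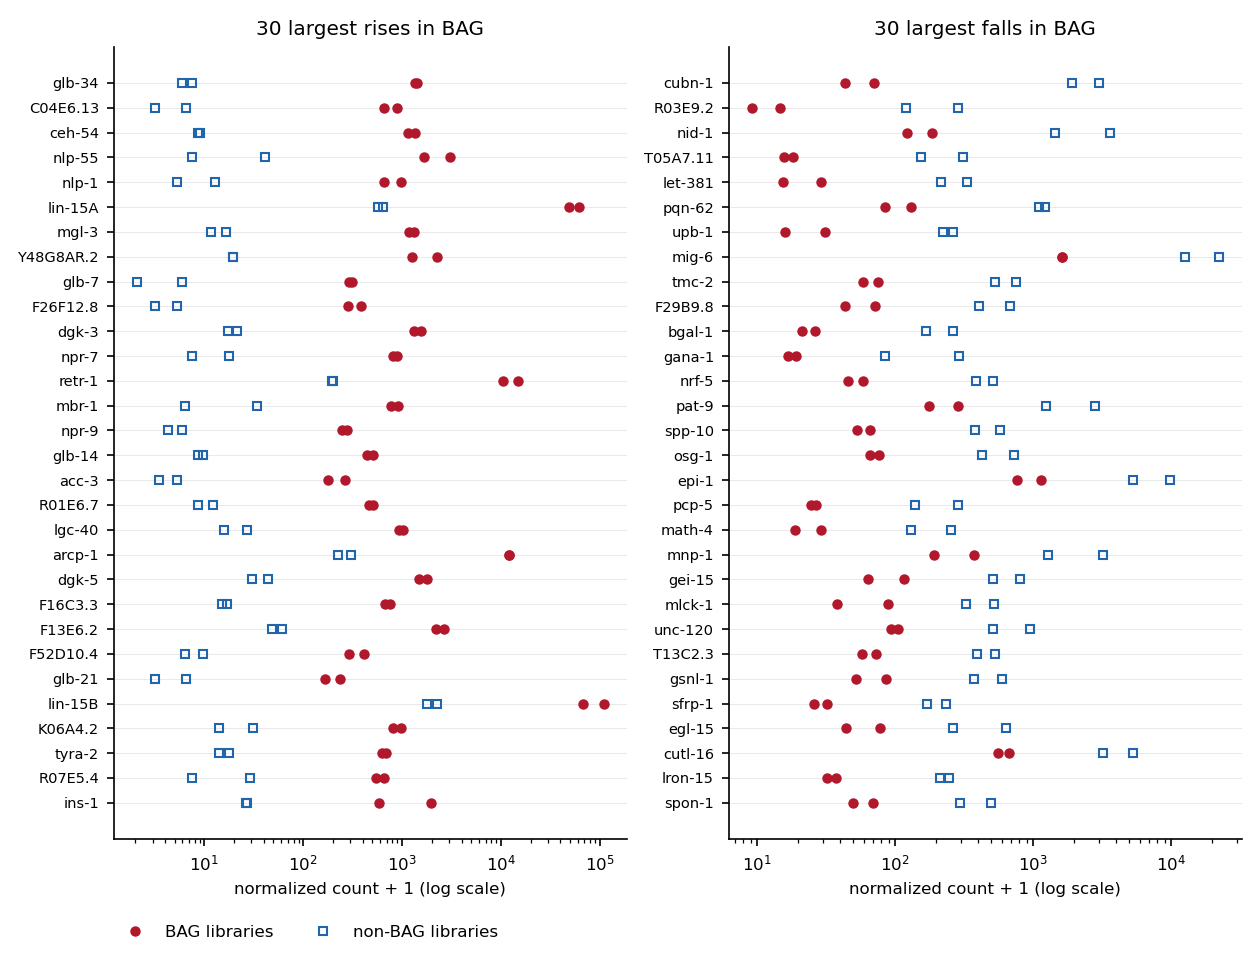
Normalized count + 1 (log scale, x axis) in each BAG library (filled circles) and each non-BAG library (open squares) for the 30 largest rises and the 30 largest falls outside the BAG identity list, under current gene names. The groups do not overlap in any row, which the choice of genes required, and the rises are wider apart than the falls.

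A run of 5 neighbouring genes on chromosome V rose together. In chromosomal order these are srd-16, C04E6.5, srd-15, C04E6.4 and C04E6.13; srd genes encode predicted chemoreceptors, and the table gives the others no name beyond a sequence identifier. C04E6.13 had 657 and 886 in BAG neurons, against 2.17 and 5.58 in non-BAG cells (7.39 ± 0.40, adjusted p = 1.15e-05). The chemoreceptor gene srd-15 had 114 and 183 in BAG neurons, against 0 and 0 in non-BAG cells, with no read at all in non-BAG cells, so that it was at least 58.2-fold higher when 3 reads are allowed in each non-BAG library. C04E6.4 had 143 and 183 in BAG neurons, against 0 and 1.24 in non-BAG cells, and C04E6.5 had 106.89 and 233 in BAG neurons, against 3.25 and 0 in non-BAG cells, which is 2 and 3 reads over both non-BAG libraries. The gene srd-16 had 12.79 and 61 in BAG neurons, against 1.08 and 0 in non-BAG cells (adjusted p = 0.00935); it shares exons with grd-9 on the other strand, and its call was lost without BAG replicate 2 (adjusted p = 0.0848). The run ended on both sides with genes that were not called: grd-9 had 11.9 and 27.3 in BAG neurons, against 6.497 and 4.34 in non-BAG cells, and C04E6.11 had 76.7 and 110 in BAG neurons, against 72.6 and 40.3 in non-BAG cells. All 5 genes of the run stayed under 10 in each non-BAG library. They entered the test only through the BAG libraries, which favours a call of higher. Whether the 5 rows reflect separate transcripts was not tested.

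Other neighbours rose together as well. Of the 134 protein-coding genes that rose by at least 4 log2 units, 38 lay next to another such gene, in 17 runs. These were 23 genes in 10 runs without BAG replicate 2, and 24 genes in 10 runs without non-BAG replicate 1. In 5 of the 17 runs, with 10 genes, members share exons, so the same reads can count towards both. The other 12 runs hold 28 genes. How many such runs the order of genes alone would give was not tested. The 17 runs include the pairs nlp-1 and aex-4 and lin-15A and lin-15B, and the run T13C5.10, T13C5.9 and ceh-54, all on chromosome X. The gene aex-4, which encodes a SNAP25-like protein of regulated secretion, had 90.4 and 137.90 in BAG neurons, against 0 and 1.86 in non-BAG cells; it shares exons with tag-18 on the other strand. T13C5.10 had 56.6 and 58.9 in BAG neurons, against 1.08 and 1.24 in non-BAG cells, and the homeobox gene ceh-54 had 1157 and 1355 in BAG neurons, against 7.58 and 8.06 in non-BAG cells (7.15 ± 0.30, adjusted p = 6.77e-06). The genes aex-4, T13C5.10 and ceh-54 stayed under 10 in each non-BAG library. They entered the test only through the BAG libraries, which favours a call of higher. In all 8 genes met the rule for being near absent from non-BAG cells (at most 3 reads over both libraries, with at least 50 in each BAG library), 5 of them protein-coding, and 0 met it in the opposite direction.

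The lin-15 locus held the highest levels per kb among the protein-coding genes that rose. Its genes lin-15A and lin-15B, of the synthetic multivulva class, had 48989 and 62071 in BAG neurons, against 641 and 569.7 in non-BAG cells, and 67893 and 109415 in BAG neurons, against 2242 and 1787 in non-BAG cells. Together they held 1.69% and 2.78% of all normalized counts in BAG neurons, against 0.0431% and 0.0446% in non-BAG cells. They share exons on the same strand, so how reads divide between them is uncertain. The labels name only a gcy-9 promoter and green fluorescent protein for the transgene; whether it carries other worm sequence is not given, and its part in the levels of lin-15A, lin-15B, gcy-9 and unc-54 was not tested.

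The X chromosome held more of the rises than any autosome. Of 1786 tested protein-coding genes on X 333 were higher in BAG neurons (18.6%), against 840 of 9846 on the 5 autosomes (8.53%), where the share ran from 6.74% on chromosome III to 10.1% on chromosome IV. Falls made up 5.99% on X and 4.38% on the autosomes. The median change was 0.08 on X and -0.12 on the autosomes. Neuronal, ciliary, sensory and channel lists and the flp, nlp, npr, frpr, gcy and glb families were then set aside: without them 273 of 1675 X genes (16.3%) and 670 of 9483 autosomal genes (7.07%) were higher. Over the 19 settings run, among them every library left out in turn, the share on X was 1.86 to 2.53 times that on autosomes. Genes on 1 chromosome are not independent replicates, and this is given as a description.

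**Figure D4:**
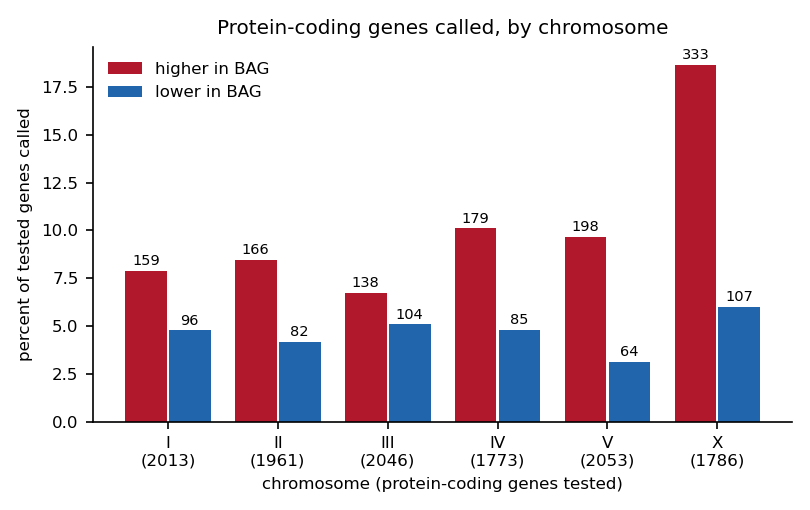
Percent of tested protein-coding genes called higher (red) or lower (blue) in BAG neurons (y axis) on each chromosome (x axis, number tested in parentheses); numbers over the bars are genes. The bar for rises on X stands at 18.6%, while those of the autosomes stand at or under 10.1%.

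Non-coding loci were tested alongside protein-coding genes. Over all 13203 genes tested 10.7% rose and 4.34% fell. Of 792 tested genes annotated as ncRNA 147 rose (18.6%) and 9 fell. The rises numbered 64 and 70 without BAG replicate 1 and 2. They numbered 88 and 84 without the first and the second mutant library. The falls numbered 5 without BAG replicate 2 and 3 without non-BAG replicate 1. They numbered 4 and 5 without the first and the second mutant library. Of those 147, 81 lay within the span of a protein-coding gene and 74 within one that was itself called higher; among the 636 that were not called, 326 lay within a protein-coding gene and 61 within a higher one. Of 99 tested piRNA loci, which encode germline small RNAs, 35 rose (35.4%), and 17 of these lay within a protein-coding gene called higher. Several piRNA loci had no read in either non-BAG library, such as 21ur-7311, with a mean of 24.3 in BAG neurons. Such loci entered the test only through the BAG libraries, which favours a rise. The piRNA rises numbered 14 and 10 without BAG replicate 1 and 2. They numbered 23 without non-BAG replicate 1, and 18 without the first or the second mutant library. Since no use of strand is stated, reads of a host gene and of a locus inside it cannot be told apart. Of 53 long intergenic RNA genes 9 rose and 2 fell. The lincRNA rises numbered 5 and 4 without BAG replicate 1 and 2. Of these genes 0 fell without non-BAG replicate 2, and 1 fell without BAG replicate 1, non-BAG replicate 1 or either mutant library.

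Neuronal machinery was higher across the presynaptic terminal, dense-core vesicle and cilium. In the list of the synaptic vesicle cycle 25 of 35 rose and 0 fell, with a median of 1.78. Beside the vesicle proteins, genes for organising the release site rose: tag-80 (now cla-1), which encodes a large active zone scaffold, had 23394 and 21969 in BAG neurons, against 3121 and 2854 in non-BAG cells (2.92 ± 0.27, adjusted p = 0.000151), unc-10, which encodes the scaffold RIM, had 5854 and 5946 in BAG neurons, against 828 and 825 in non-BAG cells (2.83 ± 0.24, adjusted p = 9.86e-05), and syd-1 and sad-1, which act in presynaptic assembly, changed by 2.69 ± 0.26 and 2.25 ± 0.25. The neurexin gene nrx-1 had 5164 and 3288 in BAG neurons, against 609 and 465 in non-BAG cells (2.95 ± 0.30, adjusted p = 0.000236). Among genes for Rab GTPase-activating proteins, tbc-16 had 1912 and 1727 in BAG neurons, against 56.3 and 40.9 in non-BAG cells (5.21 ± 0.27, adjusted p = 9.85e-06), and tbc-8, known for dense-core vesicle maturation, had 861 and 858 in BAG neurons, against 67.1 and 88.6 in non-BAG cells (3.46 ± 0.26, adjusted p = 5.53e-05). Of the peptide genes 16 of 27 tested flp genes and 13 of 25 nlp genes rose and 0 fell in either family; flp-25 had 958 and 2841 in BAG neurons, against 101 and 136 in non-BAG cells and nlp-47 had 143 and 139.33 in BAG neurons, against 13 and 4.96 in non-BAG cells. Of 29 genes for axonal transport and the neuronal cytoskeleton 7 rose, among them ptl-1, which encodes a tau-like microtubule protein (2.89 ± 0.30). The median of that list was 0.62, and 0.29 after quantile normalization, and 1 gene fell without non-BAG replicate 2.

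In the cilium 33 of 41 genes for intraflagellar transport, its motors and the BBSome rose (median 1.82), as did 17 of 19 genes of the transition zone, the gate at the base of the cilium (median 1.89). These counts were 20 and 11 without BAG replicate 1, where 1 transport gene fell. The protein kinase gene Y42A5A.4, now cdkl-1, had 1072 and 1071 in BAG neurons, against 48.7 and 42.8 in non-BAG cells (4.52 ± 0.26, adjusted p = 1.30e-05). T23E7.5, now tmem-218, changed by 4.47 ± 0.46, nphp-4 by 3.04 ± 0.35, bbs-8 by 2.79 ± 0.32 and dyf-11, of the transport particle, by 2.97 ± 0.36. The gene dyf-18 had 847 and 401 in BAG neurons, against 48.7 and 32.2 in non-BAG cells, with the groups far apart although the BAG libraries differed. The tubulin deglutamylase gene ccpp-1 had 816 and 550.2 in BAG neurons, against 228 and 188 in non-BAG cells (1.69 ± 0.30, adjusted p = 0.00519).

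**Figure D5:**
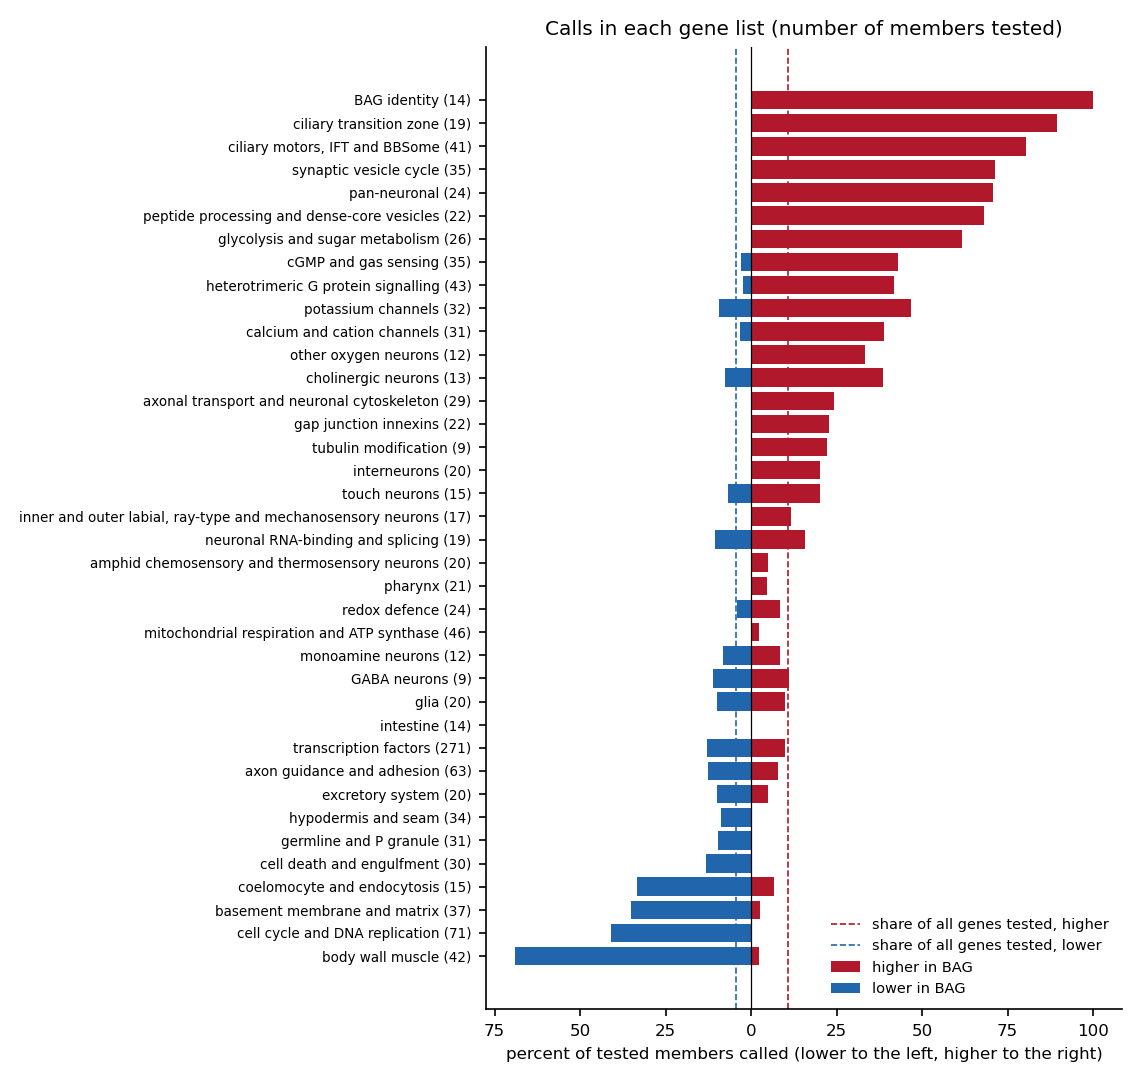
Percent of the tested members of each gene list called higher (red, to the right) or lower (blue, to the left) in BAG neurons, with the number tested in parentheses; dashed lines mark the shares over all genes tested, 10.7% and 4.34%. Lists for BAG identity, cilia, synapses, peptides and glycolysis lie far right of the line, and those for body wall muscle, the cell cycle, basement membrane and coelomocytes far left.

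Of 32 potassium channel genes 15 rose and 3 fell, against 10.7% and 4.34% of all genes tested. The calcium-activated channel gene kcnl-1 had 458 and 540.1 in BAG neurons, against 53.1 and 34.1 in non-BAG cells (3.52 ± 0.33, adjusted p = 0.000152) and exp-2, for a voltage-gated channel, had 1634 and 1581 in BAG neurons, against 76.9 and 89.9 in non-BAG cells (4.26 ± 0.26, adjusted p = 1.91e-05). The twk genes, for leak potassium channels, went both ways: twk-39 had 183 and 335 in BAG neurons, against 28.2 and 19.2 in non-BAG cells (3.36 ± 0.40, adjusted p = 0.000562), whereas twk-8, outside that list, had 61.2 and 136 in BAG neurons, against 347 and 754 in non-BAG cells (-2.47 ± 0.49, adjusted p = 0.00931) and twk-18, a channel of body wall muscle, had 109.6 and 76.8 in BAG neurons, against 404 and 369 in non-BAG cells (-2.06 ± 0.35, adjusted p = 0.00428). The count of falling potassium channel genes was 1 without BAG replicate 2, non-BAG replicate 1 or either mutant library. Of the sodium leak channel complex, nca-2 and unc-79 changed by 2.56 ± 0.29 and 2.60 ± 0.26. Innexins, the gap junction proteins of invertebrates, were mixed: 5 of 22 rose and 0 fell, with 10 at an unadjusted p under 0.05 in either direction. The median change of the list was -0.61. Those that rose included che-7 (1009 and 1186 in BAG neurons, against 69.3 and 54.6 in non-BAG cells; 4.13 ± 0.27, adjusted p = 2.76e-05), unc-7 (2.80 ± 0.33), inx-19 (2.44 ± 0.43) and inx-1 (2.1961 ± 0.25). Falls of innexins numbered 4 without non-BAG replicate 2, 1 without BAG replicate 1 and 3 after quantile normalization.

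Genes of glycolysis were higher in BAG neurons, whereas hardly any gene of mitochondrial respiration was called. Of 26 tested genes for glycolysis and sugar metabolism 16 rose and 0 fell, with a median of 1.33. The aldolase gene aldo-1 had 10997 and 10582 in BAG neurons, against 2518 and 2872 in non-BAG cells (2.00 ± 0.27, adjusted p = 0.00105), the phosphoglycerate mutase gene ipgm-1 had 7094 and 5604 in BAG neurons, against 1463 and 1403 in non-BAG cells (2.14 ± 0.26, adjusted p = 0.000626) and pck-1, the phosphoenolpyruvate carboxykinase gene of gluconeogenesis, had 4208 and 5006 in BAG neurons, against 1609 and 815 in non-BAG cells (2.00 ± 0.34, adjusted p = 0.00427). In none of these did the groups overlap. Of 46 nuclear genes for respiratory complexes and ATP synthase 1 rose and 0 fell, with a median of 0.05 that ran from -0.09 to 0.20 with a library left out. The gene that rose, sdha-1, had 462 and 484 in BAG neurons, against 292 and 144 in non-BAG cells (adjusted p = 0.0498); its call was lost in 5 of the 6 fits with a library left out. Without non-BAG replicate 2, 1 gene fell in each of the 2 lists.

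Genes for cytosolic ribosomal proteins gave no call by limma. Of 44 rpl and 31 rps genes, which encode cytosolic ribosomal proteins, 0 were called by limma, with 1 and 2 at an unadjusted p under 0.05; edgeR called 0, DESeq2 called 1 rps gene lower, and 1 rps gene fell without non-BAG replicate 2. The medians were -0.42 for rpl and -0.45 for rps. Both were -0.18 without BAG replicate 1, and they were -0.70 and -0.68 without BAG replicate 2. Per kb of exon the protein-coding gene with the highest level in BAG neurons was daf-21, for the chaperone Hsp90, at 41726 and 35463 in BAG neurons, against 22324 and 20704 in non-BAG cells (change 0.84 ± 0.37, adjusted p = 0.169). The calmodulin gene cmd-1, also among the 15 highest protein-coding genes, had 8943 and 9612 per kb in BAG neurons, against 3080.2 and 2875 in non-BAG cells, a change of 1.64 ± 0.27, adjusted p = 0.00371. The groups shared 8 of their 15 highest protein-coding genes. In the non-BAG pool 6 of the 15 were histone genes, whereas 2 of the 15 were in BAG neurons.

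Among 271 genes for transcription factors 27 rose and 35 fell, with a median of -0.34, and -0.03 without non-BAG replicate 1. The share of rises lay near the 10.7% over all genes tested, and that of falls above the 4.34%. Apart from the BAG identity factors, mbr-1, related to the honeybee factor Mblk-1, had 917 and 780.0 in BAG neurons, against 5.41 and 33.5 in non-BAG cells (5.83 ± 0.64, adjusted p = 0.00037) and ceh-79, a homeobox gene, had 100.5 and 88.3 in BAG neurons, against 2.17 and 13.6 in non-BAG cells (3.81 ± 0.66, adjusted p = 0.00459). The nuclear hormone receptor gene nhr-6 had 2274 and 2252 in BAG neurons, against 236 and 577 in non-BAG cells. For nhr-88 the levels were 1353 and 1289.9 in BAG neurons, against 240.4 and 175 in non-BAG cells. Of 153 nhr genes 19 rose (12.4%) and 3 fell (1.96%), against 10.7% and 4.34% of all genes tested. The Pax6 gene vab-3, which patterns the head, had 6333 and 5284 in BAG neurons, against 1635 and 909 in non-BAG cells (2.25 ± 0.32, adjusted p = 0.00163), and lin-14, a timing factor of larval development, had 3358 and 3353 in BAG neurons, against 592 and 513 in non-BAG cells (2.60 ± 0.24, adjusted p = 0.000152); its exons overlap those of T25C12.11 and T25C12.12. In the list of RNA-binding and splicing genes 3 of 19 rose, and 1 without BAG replicate 1 or the second mutant library. The 2 that fell were sup-12 (-2.23 ± 0.33) and etr-1 (-1.63 ± 0.31), both known for acting in muscle. The splicing repressor gene ptb-1 changed by 2.08 ± 0.31. The count of falling transcription factor genes depended on the libraries: it was 23 and 19 without BAG replicate 1 and 2, 13 and 57 without non-BAG replicate 1 and 2, and 19 without either mutant library. Of the nhr genes 7 rose and 0 fell without BAG replicate 1, and 1 fell without BAG replicate 2.

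Among the genes higher in the non-BAG pool, body wall muscle was the list with the largest share of calls. Of 42 body wall muscle genes 29 fell in BAG neurons and 1 rose, with a median of -1.71. Myosin heavy chain gene myo-3 had 599 and 428 in BAG neurons, against 2708 and 2004 in non-BAG cells (-2.1991 ± 0.29, adjusted p = 0.000928), the paramyosin gene unc-15 had 1358 and 1308 in BAG neurons, against 6090.3 and 5089.6 in non-BAG cells (-2.06 ± 0.25, adjusted p = 0.000593), and ZC373.4, now mlck-1, a myosin light chain kinase gene, had 87.7 and 37.3 in BAG neurons, against 519 and 328 in non-BAG cells (-2.83 ± 0.48, adjusted p = 0.0043). The muscle factor genes unc-120 and pat-9 had 104.15 and 92.7 in BAG neurons, against 955 and 515 in non-BAG cells, and 286 and 175 in BAG neurons, against 2839 and 1250.4 in non-BAG cells, with changes of -2.82 ± 0.35 and -3.07 ± 0.41. The exception was the myosin heavy chain gene unc-54, at 36218 and 33253 in BAG neurons, against 7237 and 6443 in non-BAG cells (2.35 ± 0.30, adjusted p = 0.000803), opposite to myo-3. Among 8 muscle markers it was the member that rose, and both BAG libraries were above both non-BAG libraries.

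Among the transcription factor genes that fell, the Hox gene mab-5 had 8.22 and 12.2 in BAG neurons, against 141.86 and 99.2 in non-BAG cells (-3.44 ± 0.44, adjusted p = 0.000844), the caudal-type gene pal-1 had 137 and 69.7 in BAG neurons, against 684 and 371 in non-BAG cells (-2.35 ± 0.41, adjusted p = 0.00473), and the sex-determination gene tra-1 had 122.42 and 60.3 in BAG neurons, against 484 and 369 in non-BAG cells (-2.28 ± 0.39, adjusted p = 0.00427). The gene hlh-8, a Twist homologue of the mesodermal M lineage, had 16.4 and 15.1 in BAG neurons, against 155 and 75 in non-BAG cells (-2.70 ± 0.50, adjusted p = 0.00644), and its call was lost without non-BAG replicate 1 (adjusted p = 0.0519). Secreted Wnt ligand genes egl-20 and mom-2 had 18.3 and 19.4 in BAG neurons, against 135 and 104.15 in non-BAG cells, and 80.4 and 38.8 in BAG neurons, against 548 and 239 in non-BAG cells, changes of -2.59 ± 0.40 and -2.67 ± 0.47. The Frizzled receptor gene mig-1 changed by -2.32 ± 0.38 and the secreted Frizzled-related gene sfrp-1 by -2.80 ± 0.44. The fibroblast growth factor receptor gene egl-15 had 77.7 and 43.1 in BAG neurons, against 634 and 262 in non-BAG cells (-2.79 ± 0.49, adjusted p = 0.00502). In the list of axon guidance and adhesion, which holds the Wnt genes, 8 of 63 fell and 5 rose; 14 fell without non-BAG replicate 2, and 3 rose without BAG replicate 1 or either mutant library. The exons of pal-1 and hlh-8 overlap C38D4.9 and C02B8.12 on the other strand, so both levels are uncertain.

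Basement membrane components, made largely by muscle and epidermal cells, fell in 13 of 37 cases and rose in 1, with a median of -0.65. The laminin alpha gene epi-1 had 1139 and 763 in BAG neurons, against 9904 and 5350.0 in non-BAG cells (-2.96 ± 0.35, adjusted p = 0.000525), the type IV collagen gene let-2 had 1009 and 783 in BAG neurons, against 6493 and 3976 in non-BAG cells (-2.51 ± 0.32, adjusted p = 0.000849) and the peroxidasin gene pxn-2 had 11.9 and 21.5 in BAG neurons, against 257 and 80.6 in non-BAG cells (-3.09 ± 0.58, adjusted p = 0.00709). The papilin gene mig-6 had 1617 and 1631 in BAG neurons, against 22198 and 12728 in non-BAG cells (-3.37 ± 0.31, adjusted p = 0.000151). For nid-1, the nidogen gene, the non-BAG libraries themselves differed more than the BAG libraries, with 185 and 122.10 in BAG neurons, against 3593 and 1440.1 in non-BAG cells. Of 26 cutl genes, which encode cuticlin-like proteins, 6 fell and 1 rose; cutl-16 had 667 and 554 in BAG neurons, against 5336 and 3198 in non-BAG cells (-2.76 ± 0.31, adjusted p = 0.000397), while cutl-15 had 1096 and 746 in BAG neurons, against 145 and 115 in non-BAG cells (2.80 ± 0.30, adjusted p = 0.00032) and shares exons with T21B10.4 on the other strand.

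In the list of coelomocyte and endocytosis genes 5 of 15 fell and 1 rose. ZC116.3, now cubn-1, related to the endocytic receptor cubilin, had 69.4 and 42.4 in BAG neurons, against 3021 and 1904 in non-BAG cells, the largest of the 573 falls (-5.44 ± 0.37, adjusted p = 3.41e-05). The coelomocyte channel gene cup-4 had 4.57 and 9.34 in BAG neurons, against 71.5 and 96.1 in non-BAG cells (-3.47 ± 0.61, adjusted p = 0.00492), and the ligand-gated channel genes lgc-28 and lgc-25 had 6.4 and 0.718 in BAG neurons, against 203 and 65.1 in non-BAG cells, and 5.48 and 6.46 in BAG neurons, against 143 and 64.5 in non-BAG cells. The genes cup-4, lgc-28 and lgc-25 stayed under 10 in each BAG library. They entered the test only through the non-BAG libraries, which favours a call of lower. The lysosomal glycosidase gene T19B10.3, now bgal-1, had 25.6 and 20.1 in BAG neurons, against 261 and 166 in non-BAG cells (-3.14 ± 0.43, adjusted p = 0.00127) and shares exons with T19B10.2; the saposin gene spp-10 had 52.1 and 65.4 in BAG neurons, against 578 and 382 in non-BAG cells (-2.99 ± 0.35, adjusted p = 0.000539). In that list 3 fell without BAG replicate 1 or non-BAG replicate 1, and the rise was lost in all 6 fits with a library left out. Further falls were R03E9.2, with 8.22 and 13.6 in BAG neurons, against 288 and 119.03 in non-BAG cells (-4.0024 ± 0.57, adjusted p = 0.00158), T05A7.11 (-3.71 ± 0.46), pcp-5 (-2.96 ± 0.48), math-4 (-2.96 ± 0.49), mnp-1 (-2.93 ± 0.45), gei-15 (-2.90 ± 0.41) and exc-5 (-2.54 ± 0.31), which encodes a guanine nucleotide exchange factor of the excretory canal.

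Of 71 genes of the cell cycle and DNA replication 29 fell and 0 rose, with a median of -1.13. The kinetochore gene knl-1 had 224 and 233 in BAG neurons, against 1086 and 678 in non-BAG cells (-1.90 ± 0.32, adjusted p = 0.00425), and the number of falls depended on the libraries: it was 13 and 12 without BAG replicate 1 and 2, 3 without non-BAG replicate 1, and 11 without either mutant library, while the median lay between -0.90 and -1.42 with a library left out. Of 41 histone genes 19 fell and 3 rose; copies that are nearly identical leave the level of any 1 histone gene uncertain, and 7 fell without BAG replicate 1, with 12 without the second mutant library. In the list of cell death and engulfment 4 of 30 fell and 0 rose. The BH3 gene egl-1, which starts programmed cell death, had 184 and 412 in BAG neurons, against 731 and 945 in non-BAG cells (-1.59 ± 0.38, adjusted p = 0.0217), and the caspase gene ced-3 had 244 and 277 in BAG neurons, against 775 and 493 in non-BAG cells (-1.25 ± 0.30, adjusted p = 0.0231). The number of falls in that list was 2 without BAG replicate 1, BAG replicate 2 or non-BAG replicate 1 and 1 without either mutant library. For egl-1 the call was lost without BAG replicate 1 (adjusted p = 0.118), without non-BAG replicate 2 (0.0594) and without either mutant library. For ced-3 it was lost without any single library other than non-BAG replicate 2, with adjusted p-values up to 0.107.

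Genes of several other tissues gave calls that were few in number. Over all genes tested 10.7% rose and 4.34% fell. The share of falls lay above that 4.34% for hypodermal and seam, germline and glial genes. Of 14 intestinal genes 0 rose and 0 fell by limma, with 4 at an unadjusted p under 0.05, and DESeq2 called 2 lower; 1 fell without non-BAG replicate 2 or the second mutant library. Of 21 pharyngeal genes 1 rose and 0 fell; without BAG replicate 1 the counts were 4 and 1, and 0 rose without non-BAG replicate 1 or either mutant library. The pharyngeal organ factor gene pha-4 had 5023 and 1174 in BAG neurons, against 4090.2 and 1115 in non-BAG cells (0.19 ± 0.70, adjusted p = 0.897), higher in replicate 1 of both groups. The pharyngeal myosin gene myo-2 had 53 and 542 in BAG neurons, against 55.2 and 104.15 in non-BAG cells (1.16 ± 0.86, adjusted p = 0.424), with overlapping groups, and was called higher without BAG replicate 1 (2.82, adjusted p = 0.00437). Of 34 hypodermal and seam genes 3 fell and 0 rose; 0 fell and 2 rose without BAG replicate 1, 1 fell without non-BAG replicate 1, and 8 fell without non-BAG replicate 2. Of 31 germline genes 3 fell and 0 rose, and 0 fell without BAG replicate 1 or non-BAG replicate 1. Of 20 glial genes 2 rose and 2 fell, and 1 fell without BAG replicate 2, non-BAG replicate 1 or either mutant library.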

How the data were processed

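Total RNA of sorted cells was amplified and sequenced with 100 bp reads, per the labels' protocols. The authors deposited a table of normalized counts per gene, a signal in which each library is scaled by its own factor; STAR, HTSeq and DESeq2 appear in the submitters' processing notes. The build, the annotation and any strand setting were not given in the sources used here. The deposited values were whole multiples of 1 read in each library, so 100.0% of them gave whole reads within a tolerance of 0.01. Gene names came from a table that matched 43655 of 47063 IDs. Chromosomes, positions, exon lengths, exon overlaps and the spans of host genes came from a WBcel235 annotation. It was not used for counting.

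Genes with at least 10 in at least 2 of the 4 wild-type libraries were tested on log2(value + 1) with limma 3.58.1 (trended variance, R 4.3.3) in 1 fit of all 3 groups with 3 residual degrees of freedom, by two-sided tests called at 0.05 after Benjamini-Hochberg adjustment. The count tests of edgeR 4.0.16 (quasi-likelihood) and DESeq2 1.42.0 were run on the recovered reads; edgeR called 1343 genes higher and 562 lower. Other pseudocounts, filters, scalings and fits, a replicate block and each library left out were also tried. On simulated data of 12765 genes, of which 12570 were unchanged, limma called 3.23%, 45.7% and 71.4% of changes of 1, 2 and 3 log2 units. It called 0.0318% of the unchanged genes. No column of per-sample values was left unused.

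Named genes are the 30 largest rises and falls outside the BAG identity list whose groups did not overlap and whose mean reached 100, up to 4 members of each list or family, the 15 protein-coding genes highest per kb in each group, genes near absent from a group, leading transcription factor genes and the defining markers. Genes added after their values were seen are acy-3, T13C5.9, the neighbours C04E6.11 and grd-9, and those that followed the replicate number (cyp-35A4, ztf-14 and ceh-45). The comparison, the gene lists and the named families were chosen with earlier results of these data known.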

Additional observations from a re-analysis of the deposited data

How the results depend on the processing

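Over the settings tried, the number of genes higher in BAG neurons was 904 to 1420 with a library left out and the number lower 273 to 750. In a fit of only the 4 wild-type libraries 901 genes were higher and 310 lower. With the replicate number as a block 1787 were higher and 1020 lower; the numbers were not taken as a pairing, since only 2 exist and the labels tie nothing to them, while differences between replicates correlated at 0.497 between the BAG and the non-BAG libraries. With that block in the fit of the 4 wild-type libraries, an alternative added after seeing the data, the counts were 2415 and 2029. The edgeR and DESeq2 counts were 1343 and 1526 higher, and 562 and 768 lower. With a library left out the change of myo-2 ran from -0.51 to 2.82 and that of pha-4 from -0.86 to 1.23; myo-2 was called higher without BAG replicate 1 (limma adjusted p = 0.00437), and pha-4 in none of the 6 fits. On simulated data limma called 3.23% of 62 changes of 1 log2 unit. There 12570 of 12765 genes were unchanged, whereas 1990 of 13203 genes were called in these data. Fewer true changes make the adjusted threshold stricter, so that share does not give the power in these data.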

Other observations

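Some genes followed the replicate number in both pools rather than the sort. At least 4-fold differences in the same direction in both groups were found for 26 genes higher in replicate 1 and for 211 genes higher in replicate 2, and 3 genes differed by as much in opposite directions. The cytochrome P450 gene cyp-35A4 had 40.2 and 391 in BAG neurons, against 55.2 and 605 in non-BAG cells. The zinc finger gene ztf-14 had 38.4 and 304 in BAG neurons, against 71.5 and 473 in non-BAG cells. The homeobox gene ceh-45 went the other way, with 166 and 12.9 in BAG neurons, against 205 and 25.4 in non-BAG cells. The labels tie no culture, day or batch to the number.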
